A study of Macaca mulatta with 20 samples.

Results

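The genes described here build, attach and remove sialic acid, or encode the hepatocyte receptor that takes up glycoproteins whose sialic acid is missing. The rule named 10 genes: GNE, NANS, NANP, CMAS, CMAH and SLC35A1 for the supply of activated sialic acid, ST6GAL1 and NEU1 for its transfer and removal, and ASGR1 and ASGR2 for the asialoglycoprotein receptor. Of these, 9 were among the 18288 genes of the tables used here, and CMAH, whose product hydroxylates activated sialic acid, was not analysed here. GNE was chosen for its fall in Control animals and ASGR2 for its difference between the diet arms at year 0, before the diet. Those values are therefore given as description and carry no test. All 9 genes passed the filter on low counts in every comparison.

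Liver RNA was sequenced from biopsies of 10 rhesus monkeys (Macaca mulatta). CR, caloric restriction, was the diet of animals 004, 007, 008, 011 and 012, and Control, the control diet, was that of animals 001, 005, 006, 009 and 010. Each animal gave 1 biopsy after 2 years on its diet (year 2) and 1 at enrolment (year 0), which makes 4 groups of 5 libraries: CR year 2, CR year 0, Control year 2 and Control year 0. At year 0, CR and Control name the arm that an animal entered, so differences at year 0 are between arms before the diet. No sex, age or strain is given in the labels, and no allele or agent is named beyond the diets.

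Sialic acid is the sugar that caps many glycan chains of secreted and cell surface proteins. Cells make it from UDP-N-acetylglucosamine in the cytosol, activate it in the nucleus as CMP-sialic acid and carry that into the Golgi, where sialyltransferases add it to glycans. In liver, loss of the cap uncovers galactose, which the asialoglycoprotein receptor on hepatocytes binds before it draws the glycoprotein into the cell.

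The shallowest library, the year 2 biopsy of Control 009, held 15421789 counts, and the remaining 19 held 20883559 to 31440640. The tissue label fitted its markers: 20 of 20 hepatocyte genes were detected (at least 1 TPM) in every library. The year 2 biopsies of Control animals 009 and 001 stood apart. Their albumin share was 5.42% for 009 and 8.57% for 001, and 10.6% to 15.8% in all others. Their summed hepatocyte markers were the lowest (009, 160000 TPM) and the highest (001, 354000 TPM) of the Control year 2 group. Control 009 at year 2 also had the highest summed markers of stellate cells and fibroblasts (1270 TPM, next 656), endothelium (327 TPM, next 167), T and NK cells (143 TPM, next 109) and B and plasma cells (25.4 TPM, next 9.00). The Control change of each of the 9 genes is given with and without animals 001 and 009. Changes of the related pathway genes and of the cell type markers are given only with these animals included.

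TPM, a share of all transcripts in a library scaled to a fixed sum, corrects for transcript length and was used to rank the genes. The receptor genes led the order, with a median over 20 libraries of 454 TPM for ASGR2 and 293 TPM for ASGR1. ST6GAL1, the enzyme that adds sialic acid to galactose at the ends of N-glycans, followed at 204 TPM. CMAS, which activates sialic acid with CTP, had a median of 117 TPM. GNE, the bifunctional enzyme that starts the pathway and limits its rate, had 61.7 TPM. NEU1, the lysosomal sialidase, had 29.5 TPM. NANS, the sialic acid phosphate synthase, had 21.6 TPM, and SLC35A1, the Golgi carrier of CMP-sialic acid, had 21.0 TPM. NANP, the phosphatase between NANS and CMAS, was lowest at 5.72 TPM.

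Most neighbours in this order overlapped. In the year 0 libraries, from enrolment, ASGR2 ran from 371 to 584 TPM and ASGR1 from 236 to 366 TPM, so these ranges did not meet. ST6GAL1, at 99.9 to 275 TPM, overlapped with both ASGR1 above it and CMAS below it, which ran from 68.6 to 154 TPM. GNE, at 46.5 to 92.8 TPM, overlapped with CMAS but lay above NEU1 at 21.8 to 33.7 TPM. NEU1, NANS (15.7 to 25.3 TPM) and SLC35A1 (17.4 to 23.0 TPM) formed an overlapping group, and NANP (5.11 to 7.75 TPM) lay below them all.

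**Figure D1:**
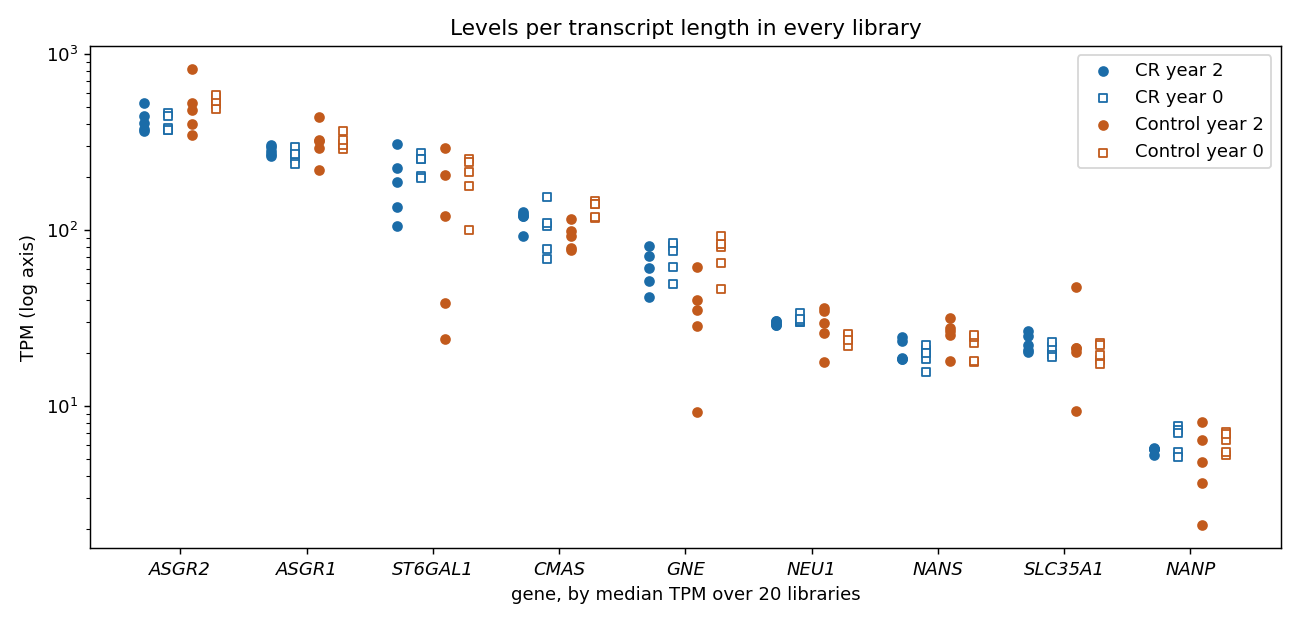
Levels of the 9 genes in TPM (vertical log axis), ordered by median over 20 libraries, with 1 point per library and the groups CR year 2, CR year 0, Control year 2 and Control year 0 side by side. ASGR2 has the highest median at 454 TPM and NANP the lowest at 5.72 TPM, and single Control year 2 libraries stand far below the rest for GNE (9.25 TPM) and ST6GAL1 (23.9 and 38.5 TPM).

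The genes differed widely in how much they varied between libraries. ST6GAL1 had a standard deviation of 0.99 in log2 CPM over 20 libraries, above that of 93.0% of genes, and GNE had 0.72, above 81.6%. NEU1 at 0.20 and SLC35A1 at 0.21 lay above only 4.73% and 6.46% of genes. Without animals 001 and 009 the spread was 0.45 for ST6GAL1 and 0.52 for GNE, against 0.14 for NEU1 and 0.18 for SLC35A1. CPM here is the count scaled to a fixed library total after TMM adjustment, and it is the scale of all changes below. The TMM factors at year 2 were 1.662 for Control 009 and 0.763 for Control 001, and all other libraries had 0.9 to 1.113. Counts of animals higher or lower are on this scale and can differ on TPM.

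GNE turns UDP-N-acetylglucosamine into N-acetylmannosamine phosphate. In CR animals 004, 007, 008, 011 and 012, GNE had 137, 259, 183, 208 and 162 CPM at year 2, against 141, 231, 240, 179 and 228 CPM at year 0. These ranges overlapped, and GNE was higher in 2 animals and lower in 3. In Control animals 001, 005, 006, 009 and 010, GNE had 45.6, 91.5, 83.7, 75.7 and 186 CPM at year 2, against 137, 227, 272, 276 and 287 CPM at year 0. Every Control animal was lower at year 2 than at its own enrolment, but the groups overlapped, because 010 at year 2 was above 001 at year 0.

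The CR change of GNE was -0.11 ± 0.21 on the log2 scale (SE, 5 animals, 0.927-fold, unadjusted p = 0.609, adjusted p = 0.999 with edgeR's quasi-likelihood test). This fit shares its estimate of the spread with the Control libraries on which GNE was chosen. A fit of the CR libraries alone gave -0.12 (unadjusted p = 0.430, adjusted p = 0.763). Leaving out each animal in turn gave -0.19 to -0.01. The Control change, for which GNE was chosen, was -1.42 ± 0.21, or 0.374-fold. Among all 13730 genes, 4.81% were lower in 5 of 5 Control animals, 660 genes with GNE included. Per animal, GNE differed by -1.58 in 001, -1.31 in 005, -1.70 in 006, -1.86 in 009 and -0.62 in 010. The sizes in 001 and 009 differ on TPM, with 9.25 TPM at year 2 against 46.5 at year 0 in 001. In 009 GNE had 40.2 TPM at year 2 against 83.2 at year 0. Without 001 and 009 the Control change was -1.19.

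The change of GNE in CR minus that in Control was 1.31 ± 0.30, a value that rests on the same Control libraries and carries no test. The single animals ran from -0.49 to 0.21 in CR and from -1.86 to -0.62 in Control. GNE was chosen for its Control fall, and the share of all genes with changes set apart in this way was not counted. CR against Control, GNE averaged 190 ± 46.8 and 96.6 ± 53.1 CPM at year 2, and 204 ± 42.4 and 240 ± 62.0 CPM at year 0 (SD, n = 5 each). The log2 differences of CR minus Control were 0.97 ± 0.34 at year 2 and -0.23 ± 0.21 at year 0 (SE), given as description.

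**Figure D2:**
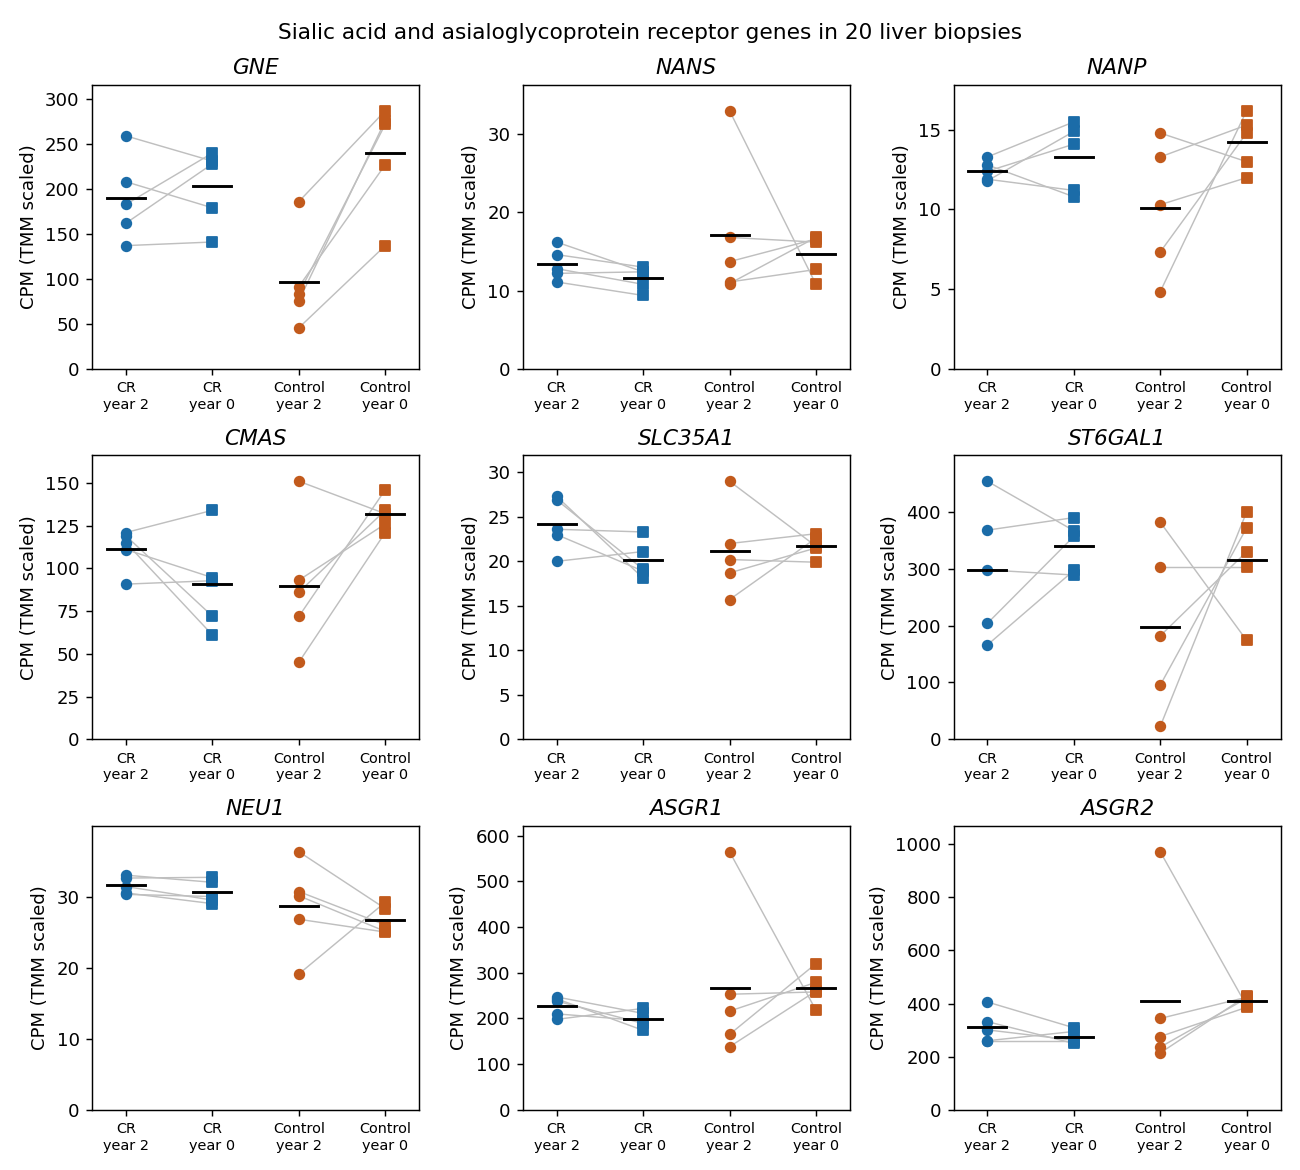
Each of the 9 genes in CPM (TMM scaled, vertical axes from 0) by group, with 1 point per library, grey lines that join the year 2 and year 0 biopsies of an animal, and black bars for group means. All 5 Control lines of GNE run lower at year 2 (mean 96.6 against 240 CPM), and the Control 001 biopsy of year 2 is the highest library for NANS, CMAS, ASGR1 and ASGR2.

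NANS condenses N-acetylmannosamine phosphate with phosphoenolpyruvate. It averaged 13.4 ± 2.01 CPM in CR at year 2 and 11.6 ± 1.5 CPM in CR at year 0, and 17.1 ± 9.23 CPM in Control at year 2 and 14.6 ± 2.71 CPM in Control at year 0 (SD, n = 5 each). The Control year 2 mean held 33.0 CPM in animal 001 and 10.9 to 16.8 CPM in the other 4. The Control change of 0.09 ± 0.26 (SE) turned to -0.12 without 001 and 009, and was not called in either case.

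NANP removes the phosphate that NANS leaves on. In CR it averaged 12.4 ± 0.609 CPM at year 2 and 13.3 ± 2.14 CPM at year 0, and in Control 10.1 ± 4.13 CPM at year 2 and 14.3 ± 1.70 CPM at year 0 (SD, n = 5 each). The low Control year 2 values were 4.84 CPM in 009 and 7.33 CPM in 001. The other 3 had 10.3 to 14.8 CPM, which overlapped with year 0. The Control change was -0.58 ± 0.25 (SE, unadjusted p = 0.0368, adjusted p = 0.325), with 4 of 5 animals lower. It was -0.05 without 001 and 009 (unadjusted p = 0.743) and -0.28 without 009 alone.

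CMAS makes CMP-sialic acid, the last step before transport into the Golgi. In CR animals 004, 007, 008, 011 and 012 it had 121, 90.8, 111, 115 and 119 CPM at year 2, against 134, 92.8, 94.6, 61.0 and 72.0 CPM at year 0. In Control animals 001, 005, 006, 009 and 010 it had 151, 93.1, 71.9, 45.1 and 86.1 CPM at year 2, against 132, 126, 146, 121 and 134 CPM at year 0. At year 2, 4 of the 5 Control animals lay below every Control value of year 0 on CPM, and only 001 lay above them. On TPM every Control animal was lower at year 2, 001 with 98.4 TPM against 146 at year 0. The smallest fall on TPM was in 005, with 116 TPM against 117. The share of all genes lower in every Control animal on TPM was not counted. At year 0, CR animal 004 was within the Control range and the other 4 CR animals were below all of it.

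The Control change of CMAS was -0.67 ± 0.24 on the log2 scale (SE, unadjusted p = 0.0163, adjusted p = 0.309), lower on CPM in 4 of 5 animals, and -0.68 without 001 and 009. Its CR change was 0.34 ± 0.24 (adjusted p = 0.999), with 3 animals higher and 2 lower, and 0.20 without 011. The difference between these changes was 1.00 ± 0.34 (unadjusted p = 0.0111, adjusted p = 0.681). CR minus Control at year 0 was -0.53 ± 0.18 (unadjusted p = 0.0132, adjusted p = 0.164), and at year 2 it was 0.31 ± 0.28 (adjusted p = 0.739). The year 2 difference was 0.13 without 009, 0.59 without 001 and 0.41 without both (unadjusted p = 0.0221, adjusted p = 1). The year 0 libraries enter both the diet difference at year 0 and the changes over time, so these values are not independent of each other.

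SLC35A1 showed smaller differences. It averaged 24.1 ± 2.99 CPM in CR at year 2 and 20.1 ± 2.09 CPM in CR at year 0, and 21.1 ± 4.97 CPM in Control at year 2 and 21.8 ± 1.23 CPM in Control at year 0 (SD, n = 5 each). The CR change was 0.26 ± 0.17 (SE, adjusted p = 0.999), with 4 of 5 animals higher. In Control, the change was -0.07 ± 0.17 (adjusted p = 0.842), and -0.06 without 001 and 009.

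The tables list more than 1 transcript only for SLC35A1 and ASGR1 among the 9 genes. A second SLC35A1 transcript was listed at 0 in 17 of the 20 libraries. It took 45.0% of the gene's TPM in Control 009 at year 2, 4.10% in CR 011 at year 0 and 2.79% in CR 008 at year 0. SLC35A1 reached 47.6 TPM in that Control 009 biopsy, the highest of its 20 values, and the lowest was 9.35 TPM in Control 001 at year 2.

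ST6GAL1 varied most of the 9 over all 20 libraries, though not without animals 001 and 009, where GNE did. In CR animals 004, 007, 008, 011 and 012 it had 368, 298, 204, 454 and 166 CPM at year 2, against 390, 289, 357, 367 and 297 CPM at year 0. In Control animals 001, 005, 006, 009 and 010 it had 95.2, 382, 303, 22.6 and 182 CPM at year 2, against 372, 174, 303, 400 and 330 CPM at year 0. Both year 2 groups were wider than their year 0 groups, and all groups overlapped. The 2 lowest of all 20 values were Control 009 and Control 001 at year 2.

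The Control change of ST6GAL1 was -1.08 ± 0.60 on the log2 scale (SE, adjusted p = 0.390), with 3 animals lower and 2 not lower. It was 0.11 without 001 and 009, and ran from -1.65 to -0.40 when each animal was left out in turn, the last of these without 009. Its CR change was -0.28 ± 0.53 (adjusted p = 0.999).

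NEU1, which cuts sialic acid off in lysosomes, varied least of the 9. It averaged 31.6 ± 1.21 CPM in CR at year 2 and 30.7 ± 1.62 CPM in CR at year 0, and 28.6 ± 6.32 CPM in Control at year 2 and 26.7 ± 1.90 CPM in Control at year 0 (SD, n = 5 each). CR minus Control at year 0 was 0.20 ± 0.08 on the log2 scale (SE, unadjusted p = 0.0235, adjusted p = 0.204). On log2(TPM + 1) values limma called this difference, at 0.35 with adjusted p = 0.0374. The CR change of 0.04 ± 0.16 and the Control change of 0.07 ± 0.16 did not pass the test (adjusted p = 0.999 and 0.825). The Control change was 0.25 without 001 and 009 (unadjusted p = 0.0436, adjusted p = 0.622).

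**Figure D3:**
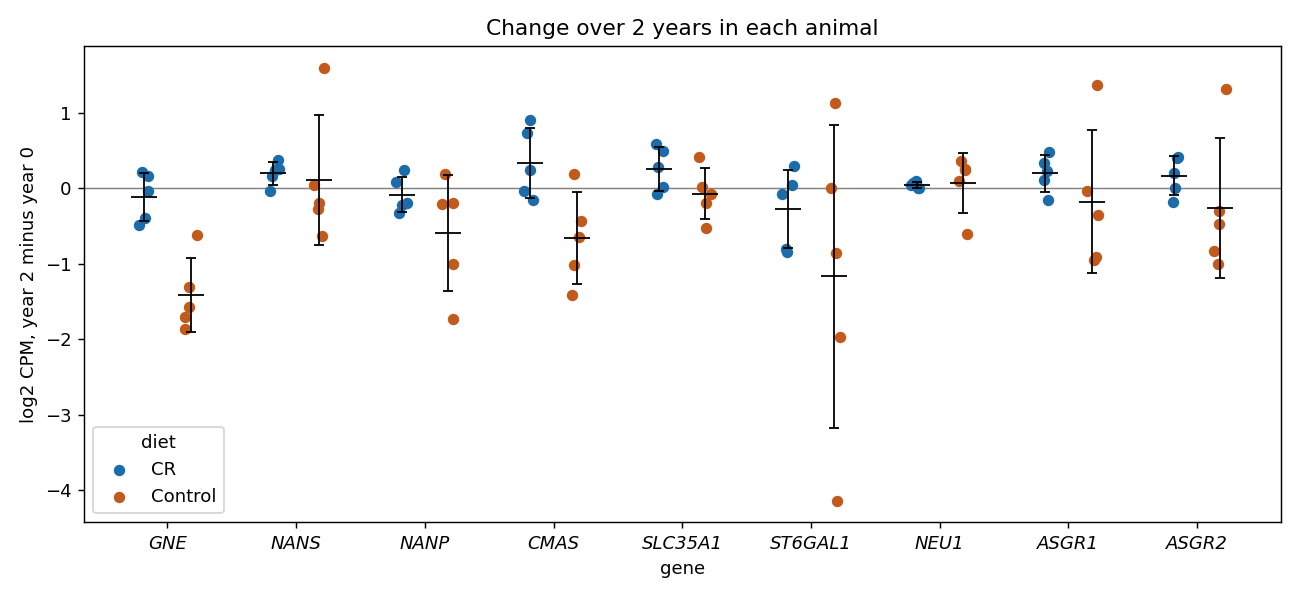
Change of each gene in each animal in log2 CPM, year 2 minus year 0 (vertical axis), with CR left of Control and bars for mean and SD over 5 animals. The 5 Control points of GNE, chosen for its Control fall, lie between -1.86 and -0.62 and the 5 CR points between -0.49 and 0.21. The ST6GAL1 points in Control spread from -4.14 to 1.13.

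ASGR1 and ASGR2 encode the major and the minor subunit of the receptor, which works as a complex of both. No protein-coding gene lies between them in the RefSeq table of assembly T2T-MMU8v2.0, where both are on chromosome 16. ASGR2 had 406, 332, 260, 259 and 301 CPM in CR animals 004, 007, 008, 011 and 012 at year 2, against 309, 250, 295, 259 and 262 CPM at year 0. In Control animals 001, 005, 006, 009 and 010 it had 972, 214, 276, 236 and 344 CPM at year 2, against 392, 429, 386, 420 and 424 CPM at year 0. At year 0 all CR animals lay below all Control animals. At year 2 the diets overlapped, and Control 001 stood far above every other library.

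The year 0 difference of ASGR2, for which it was chosen, was -0.57 ± 0.09 on the log2 scale (SE), or 0.672-fold. Of all 13244 genes tested at year 0, 2.15% had all CR animals below all Control animals and 0.0302% were called lower, which is background to a gene picked for that pattern. At year 2, in libraries that did not choose it, CR minus Control was -0.40 ± 0.41 (unadjusted p = 0.345, adjusted p = 0.757). This turned to 0.17 without 001 and 009, and leaving out each animal in turn gave -0.56 to 0.22, the highest value being that without 001. The change over 2 years was 0.17 ± 0.29 in CR and -0.29 ± 0.30 in Control (-0.58 without 001 and 009), as description.

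ASGR1 had 238, 243, 210, 198 and 247 CPM in the CR animals at year 2, against 189, 174, 195, 222 and 211 CPM at year 0. In the Control animals it had 565, 216, 165, 138 and 253 CPM at year 2, against 218, 279, 320, 260 and 258 CPM at year 0. Control 001 at year 2 was again the highest library. At year 0 only CR 011, at 222 CPM, and Control 001, at 218 CPM, kept the diets from separating.

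The rule does not name values of ASGR1 as a reason for choosing it. Its partner ASGR2, with r = 0.868 to it over 20 libraries, was chosen on these same year 0 libraries. The year 0 test of ASGR1 is therefore not independent of that choice. CR minus Control at year 0 was -0.43 ± 0.12 (SE, 0.744-fold, unadjusted p = 0.00344), which edgeR did not call (adjusted p = 0.102) and DESeq2 did (adjusted p = 0.0136). edgeR called it too without animal 001. At year 2 the difference was -0.24 ± 0.35 (adjusted p = 0.822), and it turned to 0.10 without 001 and 009. The Control change was -0.20 ± 0.30 (adjusted p = 0.739) with 4 of 5 animals lower on CPM, and -0.43 without 001 and 009 (adjusted p = 0.642). On TPM the count differed: ASGR1 had 321 TPM at year 2 against 309 at year 0 in 005, and 323 at both in 010. For the Control change limma on log2(TPM + 1) gave -0.03 (adjusted p = 0.95). The CR change was 0.20 ± 0.29 (adjusted p = 0.999) with 4 of 5 higher.

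The subunit ratio within a library does not depend on the scaling of libraries. The TPM of ASGR1 over that of ASGR2 was 0.675 ± 0.086 in CR at year 2 and 0.662 ± 0.092 in CR at year 0, while Control had 0.644 ± 0.165 at year 2 and 0.593 ± 0.095 at year 0 (SD, n = 5 each). Every library was below 1, and the highest was Control 005 at year 2 with 0.922. At year 2 the log2 ratio was 0.093 higher in CR than in Control, less than the spread within either diet (SD 0.196 in CR and 0.337 in Control). The exact two-sided permutation test over 252 assignments gave p = 0.579, where the smallest possible is 0.00794. Without 001 and 009 the difference was -0.053. In Control 001 at year 2, where both genes peaked, the ratio was 0.531.

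**Figure D4:**
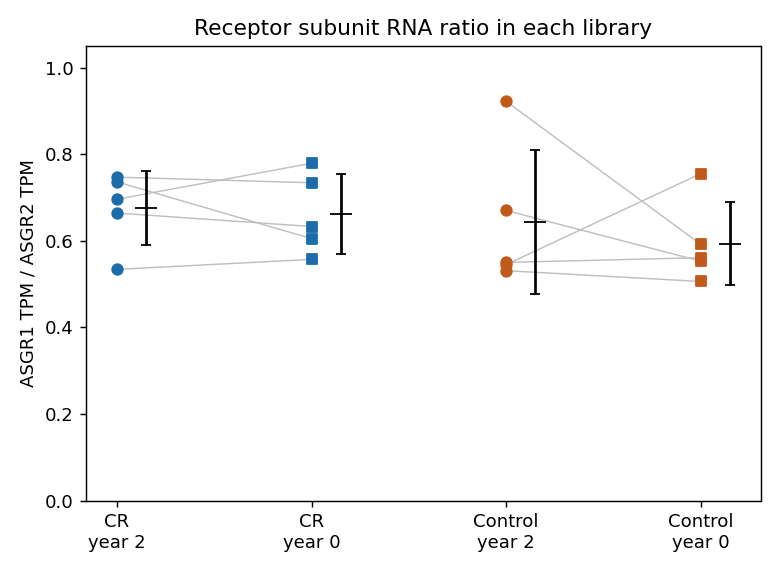
Ratio of ASGR1 to ASGR2 TPM (vertical axis from 0) in each library by group, with grey lines that join the biopsies of an animal and bars for mean and SD over 5 libraries. All 20 ratios lie between 0.506 and 0.922, and the groups overlap.

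ASGR1 RNA came from a major transcript and a minor one. The minor transcript held 8.28% ± 1.38 of ASGR1 TPM in CR at year 2 and 9.27% ± 2.17 in CR at year 0, while Control had 16.2% ± 15.2 at year 2 and 6.98% ± 1.48 at year 0 (SD, n = 5 each). The wide Control year 2 spread came from 43.3% in animal 009. The share was not tested.

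In each comparison, the members that the rule does not name as chosen on its libraries were counted and set against all genes. For the CR change, edgeR called 0 of 8 members and 0% of 13730 genes, with 0 members under an unadjusted p of 0.05, against 2.89% of all genes. DESeq2 and limma called 0 members, and 0.131% and 0% of genes. For the Control change it called 0 of 7 members and 0% of genes, with 2 members (NANP and CMAS) under an unadjusted p of 0.05, against 14.6% of all genes. For the difference between the changes it called 0 of 7 members and 0% of genes, with 1 member (CMAS) under an unadjusted p of 0.05, against 6.85% of all genes. DESeq2 and limma called 0 of these 7 members in both comparisons. Of all genes, DESeq2 called 1.52% in the Control change and 0.299% in the difference, and limma 0%. On CPM, no counted member was higher or lower in all 5 CR animals, where 6.55% of genes were higher and 5.67% lower. None was higher or lower on CPM in all 5 Control animals, where 4.62% of genes were higher and 4.81% lower.

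At year 2, edgeR called 0 of 8 members and 0% of 13345 genes. No member was under an unadjusted p of 0.05, against 7.03% of all genes. DESeq2 and limma called 0 members, and 0.0525% and 0% of genes. At year 0, edgeR called 0 of 7 members and 0.242% of 13244 genes. Of these members, 4 (ASGR1, CMAS, NANS and NEU1) were under an unadjusted p of 0.05, against 18.3% of all genes. DESeq2 called 1 of them, ASGR1, and 5.86% of all genes, and limma 1, NEU1, and 2.9% of all genes. The members counted at year 0 include ASGR1, whose test there is not independent of the choice of ASGR2. On CPM, no counted member had diets that did not overlap. At year 2, 0.757% of genes had no overlap on CPM, with 0.375% higher and 0.382% lower in all CR animals. At year 0 the share was 4.99%, with 2.84% higher and 2.15% lower in all CR animals. On TPM, NEU1 at year 0 ran from 30 to 33.7 in CR and from 21.8 to 25.8 in Control. The share of all genes without overlap on TPM was not counted.

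These members' median log2 differences were 0.12 for the CR change, -0.20 for the Control change, 0.40 for the difference between the changes, 0.16 at year 2 and -0.11 at year 0. The medians of all genes were 0.001, 0.005, 0.008, -0.067 and -0.015 in the same order of comparisons. In the difference between the changes, 20 of 20 hepatocyte markers were positive (median 0.53), so a positive value there was not particular to the members. Of 18 macrophage markers, 17 were negative there (median -1).

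Markers of cell types moved along with these comparisons. Of 20 hepatocyte markers, 17 had a positive CR change (median 0.13) and 19 a negative Control change (median -0.46), and at year 0 CR minus Control was negative for 17 (median -0.30). Summed hepatocyte markers ran from 291000 to 327000 TPM in CR at year 2 and 294000 to 309000 TPM in CR at year 0, and from 160000 to 354000 TPM in Control at year 2 and 283000 to 314000 TPM in Control at year 0. Of 18 macrophage markers, 17 had a negative CR change (median -0.59) and 16 a positive Control change (median 0.40), and at year 0 CR minus Control was positive for 17 (median 0.71).

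Summed macrophage markers ran from 1010 to 2240 TPM in CR at year 2 and 1990 to 2500 TPM in CR at year 0, and from 1470 to 3010 TPM in Control at year 2 and 1180 to 1830 TPM in Control at year 0. All 18 were detected in every library. Of 11 T and NK cell markers, 10 had a negative CR change and 10 a positive Control change, and all 11 were positive in CR minus Control at year 0 (median 0.48). Endothelial markers were positive there for 9 of 9 (median 0.38). Of 10 cholangiocyte markers, 10 had a positive CR change (median 0.56) and 8 a positive Control change (median 0.42). Of 6 red blood cell markers, CR minus Control was negative for 6 at year 2 (median -1.44) and 5 at year 0 (median -0.98). Stellate and fibroblast markers were positive for 9 of 10 in the CR change and 8 of 10 in the Control change.

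The part of these cell type markers in the values of GNE, CMAS, ASGR1 and ASGR2 was not tested. In a biopsy, fewer cells of a type and less RNA per cell cannot be told apart.

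Related pathway genes were read from the same fits, with animals 001 and 009 included. Of 84 tested over time, edgeR called 0 in the CR change, the Control change and their difference, with 0, 10 and 9 under an unadjusted p of 0.05, against 2.89%, 14.6% and 6.85% of all genes. It called 0 of 83 at year 2 and 0 of 82 at year 0, with 5 and 21 under that p, against 7.03% and 18.3% of all genes. limma called 7 at year 0, against 2.9% of all genes, and 0 in the other comparisons. DESeq2 called 1 in the Control change (LGALS3), against 1.52% of all genes, and 9 at year 0, against 5.86% (HK2, LGALS3, LRP1, MRC1, ORM1, RENBP, ST3GAL2, ST8SIA4 and TF). It called 0 elsewhere.

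Among 14 genes that make or salvage UDP-N-acetylglucosamine, the substrate of GNE, 8 had a positive CR change (median 0.04) and 10 a positive Control change (median 0.28). RENBP, the renin-binding N-acetylglucosamine epimerase, had the smallest p in Control, with 8.83 ± 4.26 CPM at year 2 and 4.09 ± 0.363 CPM at year 0 (SD, n = 5 each). Its log2 change was 0.98 ± 0.31 (SE, adjusted p = 0.305). HK2, a hexokinase, had the smallest p in CR, at -1.02 ± 0.48 (adjusted p = 0.999), and at year 0, with CR minus Control at 1.17 ± 0.28 (adjusted p = 0.084).

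Of 19 other sialyltransferases, 15 passed the filter over 20 libraries, and 9 had a positive CR change and 10 a positive Control change. ST8SIA3, of the family that builds sialic acid chains, had the smallest p in Control, with a change of -0.89 ± 0.40 (SE, adjusted p = 0.337). ST8SIA4, a polysialyltransferase, had the smallest p in CR, at -0.76 ± 0.36 (adjusted p = 0.999), and at year 0, with CR minus Control at 0.76 ± 0.18 (adjusted p = 0.0831). At year 2 the smallest p was that of ST6GALNAC4, at -0.38 ± 0.28 (adjusted p = 0.699).

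Of 9 other genes of sialic acid removal, export and breakdown, 7 passed the filter. All 7 had negative Control changes (median -0.45) and 6 negative CR changes (median -0.32). SIAE, which removes acetyl groups from sialic acid, had the smallest p in Control, at -0.77 ± 0.39 (SE, adjusted p = 0.362). NPL, the lyase that breaks free sialic acid down, had the smallest p in CR, at -0.32 ± 0.16 (adjusted p = 0.999). At year 2 it was CASD1, which adds acetyl groups to sialic acid, with CR minus Control at 0.54 ± 0.29 (adjusted p = 0.661).

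The 18 genes that trim and branch N-glycans and add galactose had 6 positive CR changes and 5 positive Control changes. MGAT2, a branching N-acetylglucosaminyltransferase, had the smallest p in Control, at -0.50 ± 0.17 (SE, adjusted p = 0.309). It averaged 59.2 ± 11.6 CPM in CR at year 2 and 52.5 ± 4.86 CPM in CR at year 0, and 44.0 ± 12.7 CPM in Control at year 2 and 60.5 ± 9.49 CPM in Control at year 0 (SD, n = 5 each). Its difference between the changes was 0.66 ± 0.24 (SE, adjusted p = 0.681). B4GALT4, a galactosyltransferase, had the smallest p in CR, at -0.33 ± 0.19 (adjusted p = 0.999). The mannosidases MAN2A1 and MAN2A2 had the smallest p between the diets, with CR minus Control at 0.88 ± 0.42 for MAN2A1 at year 2 (adjusted p = 0.659) and 0.51 ± 0.17 for MAN2A2 at year 0 (adjusted p = 0.153).

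Other lectins and glycoprotein clearance receptors bind exposed sugars or whole glycoproteins on several liver cell types. Of 10 that passed the filter, 1 had a positive CR change (median -0.42) and 8 a positive Control change (median 0.70). This list includes macrophage and endothelial genes, whose markers are given above for macrophages. Of 9 endothelial markers, 9 had a negative CR change and 7 a positive Control change. SIGLEC1, the macrophage receptor for sialic acid, averaged 33.5 ± 12.6 CPM in CR at year 2 and 42.0 ± 2.75 CPM in CR at year 0, and 64.3 ± 36.8 CPM in Control at year 2 and 31.6 ± 7.46 CPM in Control at year 0 (SD, n = 5 each). Its difference between the changes was -1.31 ± 0.39 (SE, adjusted p = 0.668).

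LGALS3, a galactose-binding lectin, had a Control change of 1.20 ± 0.30 (SE, adjusted p = 0.297) and a CR minus Control difference at year 0 of 1.61 ± 0.37 (adjusted p = 0.0819). MRC1, the macrophage mannose receptor, had the smallest p in CR, at -0.87 ± 0.41 (adjusted p = 0.999). CLEC4G, a lectin of sinusoidal endothelium, had CR minus Control at -1.25 ± 0.45 at year 2 (adjusted p = 0.659).

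Plasma glycoproteins made by hepatocytes, which carry the sialic acid, followed the signs of the hepatocyte markers, with which they share genes. Of 20, 17 had a positive CR change (median 0.16) and 19 a negative Control change (median -0.43). At year 0, CR minus Control was negative for 17 (median -0.22). FETUB, a fetuin, averaged 412 ± 109 CPM in CR at year 2 and 253 ± 39.6 CPM in CR at year 0, a change of 0.67 ± 0.34 (SE, adjusted p = 0.999). ITIH2, a hyaluronan-binding plasma protein, had a Control change of -0.54 ± 0.26 (adjusted p = 0.348). ORM1, an acid glycoprotein of the acute phase, had CR minus Control at year 0 of -0.87 ± 0.28 (adjusted p = 0.153).

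The genes whose log2 CPM was most like that of GNE over 20 libraries were RALGPS2 (Pearson r = 0.855), KLF13 (0.851), TMEM68 (0.838), RGMB (0.836) and AUH (0.832), with Spearman rho of 0.786, 0.776, 0.789, 0.883 and 0.675. The libraries come from 10 animals and share the low Control year 2 biopsies, and no p is given. Over the 16 libraries without 001 and 009 the order changed, with RALGPS2 at r = 0.651, and ZNF638 (0.884) and LPA (0.868) were nearest. With GNE, the other members had r from -0.264 (NANS) to 0.529 (NANP) over 20 libraries and from -0.658 (NEU1) to 0.458 (ASGR1) over 16. NANP had r = -0.242 over the 16.

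ASGR1 was most like TBCA (r = 0.956), HSD17B10 (0.955), DDRGK1 (0.942), POLR2G (0.941) and UXT (0.940), with rho of 0.884, 0.961, 0.859, 0.917 and 0.895. ASGR2 was most like RER1 (r = 0.947), TECR (0.921), MNF1 (0.916), SUB1 (0.915) and ERP29 (0.913), with rho of 0.892, 0.841, 0.814, 0.836 and 0.871. The receptor genes had r = 0.868 with each other over 20 libraries and 0.687 over 16. HSD17B10 was nearest to ASGR1 (0.931) and MNF1 to ASGR2 (0.944) over the 16 libraries. These are descriptions across libraries that share animals and differ in depth.

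The authors' deposited table of fold changes for 3071 genes names neither its comparison nor its filter. Its log2 fold changes had r = 1.0 across 2969 genes with a DESeq2 fit here of the change in CR minus the change in Control. The other comparisons had at most 0.849 in that direction, and genes are not independent replicates. The values themselves were not equal, with a median absolute difference of 0.108 and the same sign in 92.5% of genes. It holds 5 of the members. In the authors' deposited table GNE had a log2 fold change of 1.19, CMAS 0.88, NANP 0.37, SLC35A1 0.21 and NEU1 -0.15. The edgeR fit here gave higher values for all of these, at 1.31, 1.00, 0.50, 0.33 and -0.03 in the same order. The authors' deposited table gives adjusted p = 0.0308 for CMAS among its 3071 genes, and an unadjusted p of 0.00362. The fit here of the same libraries with a term per animal gave an unadjusted p of 0.00498 with DESeq2 and 0.0111 with edgeR, which adjusted over 13730 genes were 0.263 and 0.681. The authors' deposited table gives adjusted p of 0.404 for NANP, 0.544 for SLC35A1 and 0.594 for NEU1.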

How the data were processed

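Liver RNA libraries were sequenced paired-end after TruSeq preparation, per the labels' protocols. The authors deposited expected counts (estimated counts that need not be whole, 4.37% of gene values not whole) and TPM per gene and transcript. Per the submitters' processing notes, the tools were STAR, RSEM and DESeq2 (no versions or roles) and the build was Mmul_8.0.1. For annotation and strand the sources used here give nothing. The authors' deposited comparison table gives a signal column (mean of normalized counts), log2 fold changes and p-values, per the file headers.

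Counts were rounded, filtered with filterByExpr, scaled by TMM and tested with edgeR 4.0.16 in R 4.3.3 (quasi-likelihood F test, two-sided, Benjamini-Hochberg over all genes, threshold 0.05). The test was also run on simulated counts with known changes. Those counts were drawn without differences between animals, so they do not show how the test fares with such differences. Changes over time came from 1 fit of 20 libraries with a term per animal, paired by the animal number in the titles. The deviations of an animal's biopsies from their group means correlated at -0.25 to 0.16. No libraries held identical values. Diets were compared within each year (13345 genes at year 2, 13244 at year 0). DESeq2 1.42.0, limma 3.58.1 on log2(TPM + 1), other filters and left-out animals were alternatives. Log2 CPM used a prior count of 1. The SE was derived from the F statistic. Library totals set the counting precision; the replicate is the animal.

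All members are named; of each further list, the gene with the smallest p in each comparison could be named, and for likeness the 5 genes with the highest r. The members and lists were chosen with earlier results of these data known.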

Additional observations from a re-analysis of the deposited data

Results flagged for a closer look

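Among 40 groups of 5 libraries (the 9 genes and the ASGR1 to ASGR2 ratio, in 4 groups each), 1 library stood apart by the gap to its nearest neighbour over the group's range (Dixon's critical value 0.71), where chance gives about 1 in 20. It was CMAS in CR animal 007 at year 2, at 6.50 in log2 CPM or 90.8 CPM, against 111 to 121 CPM in the other 4 CR animals of year 2. The same animal had 92.8 CPM at year 0.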

How the results depend on the processing

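Counts of members called leave out GNE and ASGR2 wherever they were chosen on the libraries compared. They keep ASGR1 at year 0, where its test is not independent of the choice of ASGR2. edgeR called 0 members in the Control change, the CR change and the difference of these changes. It also called 0 in CR against Control at year 2 and at year 0. DESeq2 called 0 in the Control change and 0 in the difference of changes. At year 0, DESeq2 called 1 (ASGR1), limma 1 (NEU1), no low-count filter 0 and all 20 libraries in 1 fit 0. Leaving out each animal in turn gave 1 (ASGR1) at year 0 without 001, and 0 in every other run and comparison.

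Over all genes, DESeq2 called 209 in the Control change, 18 in the CR change, 41 in the difference of changes, 7 at year 2 and 776 at year 0, against 0, 0, 0, 0 and 32 with edgeR. Without 001 and 009 edgeR called 1, 1, 1, 2 and 228. At year 0, limma called 384, no filter left 13, all 20 libraries in 1 fit 0, and leaving out each animal gave 3 to 340. Leaving out each animal gave 0 to 3 for the Control change and 0 to 1 for the CR change and for the difference.

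Scaling by relative log expression changed no sign or call of a member. In the paired fits, dropping the replicate block turned ASGR1 in Control to 0.002 and NANS in the difference of changes to -0.017, and changed no call. With limma on log2(TPM + 1), SLC35A1 turned to 0.085 in Control, NEU1 to -0.066 in CR, NANS to -0.147 in the difference, and NANP to 0.054 and SLC35A1 to 0.047 at year 0. Without the low-count filter NEU1 turned to 0.001 in the difference. Without 001 and 009, NANS turned to -0.122 and ST6GAL1 to 0.109 in Control, NANP to -0.035 and ST6GAL1 to -0.389 in the difference, and NANP to -0.05, ASGR1 to 0.104 and ASGR2 to 0.165 at year 2. The cause was not tested.

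Leaving out each animal turned signs within these ranges: in Control, ASGR1 -0.557 to 0.011, NANS -0.255 to 0.3 and SLC35A1 -0.172 to 0.05; in the difference, NANS -0.106 to 0.454 and NEU1 -0.226 to 0.037; at year 2, ASGR1 -0.417 to 0.231, ASGR2 -0.561 to 0.216 and NANS -0.492 to 0.028; at year 0, ST6GAL1 -0.041 to 0.213. The ASGR1 to ASGR2 ratio at year 2 did not pass the test under any alternative run, and was -0.053 without 001 and 009 and 0.032 to 0.231 with each animal left out. With 5 animals a diet, small differences in these genes could not be resolved.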
